A study of Homo sapiens with 9 samples.

Results

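Genes that restrain entry into the cell cycle were followed across a series of related human breast epithelial lines. They are the CDK inhibitors CDKN1A, CDKN1B, CDKN1C, CDKN2C and CDKN2D and the pocket proteins RB1, RBL1 and RBL2. They were picked by name from these families, with no threshold on their values, and are 8 of the 62666 genes in the deposited tables. The related inhibitors CDKN2A and CDKN2B, without counts in any library, are not among the 8. All 8 were among the 17910 genes with enough counts to test. MCF10A cells are immortal mammary epithelial cells that do not form tumours. MCF10AT1 cells carry in addition an activated HRAS and serve as a premalignant model, and MCF10Ca1a, from the same lineage, forms tumours. Every stage is thus represented by a single line, measured in 3 libraries of polyadenylated RNA, 9 in all, and the series set out to follow expression as breast cancer progresses. The medium of all lines was DMEM/F12, to which cholera toxin was added at 100 ng/mL, hydrocortisone at 500 ng/mL, EGF at 20 ng/mL, insulin at 10 µg/mL, L-glutamine at 2 mM and NaHCO3 at 14 mM. Horse serum was 5% for MCF10A and MCF10Ca1a and 2.5% for MCF10AT1, so serum and line cannot be told apart in any comparison with MCF10AT1. The labels do not say whether the 3 libraries of a line came from separate cultures, so p-values measure the spread between these libraries, which may be technical.

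Cyclin-dependent kinases drive cells from G1 into S phase by phosphorylating the pocket proteins, which otherwise bind E2F factors and keep their target genes off. The CIP/KIP inhibitors (CDKN1A, the p21 protein; CDKN1B, p27; CDKN1C, p57) bind cyclin-kinase complexes, and the INK4 inhibitors (CDKN2C, p18; CDKN2D, p19) bind CDK4 and CDK6 themselves. RB1 mainly holds the activating E2F factors, while RBL1 (p107) and RBL2 (p130) bind E2F4 and E2F5 and join the MuvB proteins in the DREAM complex, which represses cell cycle genes in resting cells. CDKN1B protein is controlled largely by degradation, CDKN1C is imprinted, and RBL1 is itself an E2F target gene.

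MCF10A libraries held 64.2 to 69.5 M counts, MCF10AT1 libraries 62.9 to 68.1 M and MCF10Ca1a libraries 32.9 to 35.2 M. The lines expressed 9 of 9 epithelial markers at 1 TPM (transcripts per 1 M, a level corrected for transcript length) or more in each of the 9 libraries. Their summed level was 2665 to 3744 TPM in MCF10A, 4034 to 4535 in MCF10AT1 and 2832 to 2939 in MCF10Ca1a. Of 6 fibroblast, 4 endothelial and 5 leukocyte markers, at most 2, 1 and 1 reached 1 TPM in any library. The summed fibroblast markers ran from 6.43 to 7.21, 27.6 to 31.5 and 1.92 to 2.29 TPM in MCF10A, MCF10AT1 and MCF10Ca1a, the endothelial markers from 0.674 to 0.901, 0.868 to 1.32 and 15.6 to 20.8, and the leukocyte markers from 8.35 to 13.0, 2.65 to 2.71 and 30.2 to 33.1. Most of each sum was DCN in MCF10AT1, PECAM1 in MCF10Ca1a and CD68 in every line, and CD3E was at 0. Their part in the results was not tested.

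The promoters of 4 starts are shown as examples. They are those of RBL1, of CDKN2C-201 and CDKN2C-203 among the 3 annotated CDKN2C starts with counts, and of CDKN2D. CDKN2D went the opposite way to CDKN2C in MCF10Ca1a. Windows of CDKN1A, CDKN1B and RBL2 were searched but are not shown. The sequences are from RefSeq on GRCh38.p14, read 5′ to 3′ on the strand of the gene, and stop just before the first annotated start. For CDKN2D that is the start of CDKN2D-201. The bases from there to the start of CDKN2D-202, which held most counts of the gene, are not shown. Capitals mark letters of an E2F motif. Windows for 7 of the 8 members were matched, and that of RB1, which belongs to an internal start, is not shown.
RBL1, chr20:37095998-37096247, minus strand: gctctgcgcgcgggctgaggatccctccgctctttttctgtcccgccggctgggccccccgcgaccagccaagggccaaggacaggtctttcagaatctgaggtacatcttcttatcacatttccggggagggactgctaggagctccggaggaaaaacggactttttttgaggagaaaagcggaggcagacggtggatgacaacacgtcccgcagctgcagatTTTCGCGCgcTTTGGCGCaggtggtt
CDKN2C, start of CDKN2C-201, chr1:50960495-50960744, plus strand: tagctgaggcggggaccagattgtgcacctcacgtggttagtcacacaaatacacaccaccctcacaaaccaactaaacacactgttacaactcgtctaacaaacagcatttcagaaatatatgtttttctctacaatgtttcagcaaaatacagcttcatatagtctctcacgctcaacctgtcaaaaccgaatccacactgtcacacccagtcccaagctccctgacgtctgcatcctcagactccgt
CDKN2C, start of CDKN2C-203, chr1:50968456-50968694, plus strand: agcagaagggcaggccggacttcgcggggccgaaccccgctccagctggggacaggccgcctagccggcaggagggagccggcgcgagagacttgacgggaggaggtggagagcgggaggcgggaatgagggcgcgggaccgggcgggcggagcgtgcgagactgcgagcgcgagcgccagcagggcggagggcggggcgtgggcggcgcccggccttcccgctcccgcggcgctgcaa
CDKN2D, chr19:10569060-10569229, minus strand: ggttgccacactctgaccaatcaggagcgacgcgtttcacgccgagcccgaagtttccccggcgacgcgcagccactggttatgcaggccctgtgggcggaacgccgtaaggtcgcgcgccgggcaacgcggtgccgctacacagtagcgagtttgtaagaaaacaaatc

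Of the members with a window, only RBL1 held an E2F motif in the windows of 300 bases around the RefSeq start. The motif was searched as TTTCCCGC, TTTCGCGC, TTTGCCGC or TTTGGCGC on both strands. The main start of RB1 lay outside its window and CDKN1C had no window, so the promoters of both were not searched. RBL1 held TTTCGCGC beginning 26 bases and TTTGGCGC beginning 16 bases before that start, without overlap. Such letters occurred in 1164 of 35116 RefSeq windows (3.31%). The cell cycle homology region of mitotic genes, searched as TTTGAA on both strands, occurred in 5324 windows (15.2%) and in 1 window of RBL2, after its start and outside any sequence shown. A match describes letters and is not a site of binding.

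Levels are given first as CPM, counts per 1 M of a library total scaled by the TMM method, which serve to compare one gene between lines. Genes were tested with edgeR (quasi-likelihood F test), p-values were adjusted by the Benjamini-Hochberg method across the 17910 genes, calls were made at an adjusted p under 0.05, and SE is the standard error of the log2 fold change. In MCF10AT1 against MCF10A, 7 of the 8 members were called, 1 higher and 6 lower, where 61.6% of all genes tested were called (29.8% higher and 31.8% lower). In MCF10Ca1a against MCF10AT1 all 8 were called, 3 higher and 5 lower, where 78.4% of genes were (38% higher, 40.3% lower). In MCF10Ca1a against MCF10A all 8 were called, 3 higher and 5 lower, where 80.9% were (39% higher, 41.9% lower). With so many calls in these data, a call alone sets no member apart. The replicates of the lines compared did not overlap in CPM for 7, 8 and 8 members, against 65.4%, 81.9% and 81.5% of all genes. At least 2-fold changes were called for 3, 4 and 4 members in these comparisons, against 18%, 37.7% and 42.9% of all genes. The median log2 fold change of the members was -0.38, -0.60 and -0.37, and that of all genes was -0.0038, -0.04 and -0.05. On TPM values, tested with limma on log2(TPM + 1), the share of called genes that were higher went from 48.4% to 36.2%, from 48.5% to 61.6% and from 48.2% to 55.0%, and the median of all genes moved to -0.07, 0.13 and 0.06. The comparisons share libraries, so they are not independent of each other. In bulk RNA, fewer cells expressing a gene and less RNA per cell cannot be told apart.

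CDKN1A, which stops the cell cycle after DNA damage, was the member that rose in MCF10AT1 and returned in MCF10Ca1a. CDKN1A (ENSG00000124762.14, chr6:36676460-36687339, plus strand, GENCODE 29 on GRCh38, which gives all gene positions here) stood at 167, 154 and 148 CPM in the MCF10A libraries, 365, 367 and 348 in MCF10AT1, and 141, 138 and 143 in MCF10Ca1a. All 3 MCF10AT1 libraries lay above every library of the other lines. The mean was 156 ± 9.68 CPM (SD, n = 3) in MCF10A, 360.2 ± 10.6 in MCF10AT1 and 140.9 ± 2.52 in MCF10Ca1a. MCF10AT1 was 2.31-fold above MCF10A (log2 fold change 1.21, SE 0.0564, edgeR adjusted p 5.06e-10), and MCF10Ca1a was 2.56-fold below MCF10AT1 (log2 fold change -1.35, SE 0.0570, edgeR adjusted p 5.56e-11). Between the outer lines the difference was small, a log2 fold change of -0.15 for MCF10Ca1a against MCF10A (95% interval -0.27 to -0.03, edgeR adjusted p 0.0271). That call was lost with DESeq2 size factors (edgeR adjusted p 0.101), with DESeq2's Wald test (adjusted p 0.0736), on TPM (limma adjusted p 0.728, with replicates that overlapped), with counts thinned to the smallest library (edgeR adjusted p 0.0780), in the fit of those lines alone (0.0705), and without MCF10Ca1a replicate 1 (0.0646) or 2 (0.0959).

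CDKN1B, the p27 inhibitor of cyclin E and CDK2 that accumulates in resting cells, fell at both steps. CDKN1B (ENSG00000111276.12, chr12:12715058-12722371, plus strand) stood at 43.7, 43.2 and 43.1 CPM in the MCF10A libraries, 25.6, 28.0 and 26.1 in MCF10AT1, and 13.7, 13.0 and 13.7 in MCF10Ca1a. No line overlapped another. MCF10AT1 was 1.63-fold below MCF10A (log2 fold change -0.70, SE 0.0493, edgeR adjusted p 3.15e-08). MCF10Ca1a was 1.97-fold below MCF10AT1 (log2 fold change -0.98, SE 0.0550, edgeR adjusted p 1.06e-09) and 3.22-fold below MCF10A (log2 fold change -1.68, SE 0.0544, edgeR adjusted p 2.63e-12). On log2(TPM + 1) the second step was smaller, -0.65 (limma adjusted p 1.34e-05).

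CDKN1C, an imprinted inhibitor expressed from the maternal allele, was the rarest member in MCF10A and MCF10AT1. CDKN1C (ENSG00000129757.15, chr11:2883213-2885773, minus strand) was counted 74, 69 and 64 times in the MCF10A libraries, 29, 21 and 20 times in MCF10AT1, and 56, 61 and 56 times in MCF10Ca1a; the last are shallower libraries. As CPM these were 1.15, 1.07 and 0.917, then 0.435, 0.317 and 0.322, and then 1.56, 1.81 and 1.58. MCF10AT1 was lowest and MCF10Ca1a highest, with no overlap between lines. MCF10AT1 was 2.90-fold below MCF10A (log2 fold change -1.54, SE 0.197, edgeR adjusted p 1.38e-05), and MCF10Ca1a was 4.58-fold above MCF10AT1 (log2 fold change 2.20, SE 0.200, edgeR adjusted p 1.84e-07). MCF10Ca1a exceeded MCF10A by 1.58-fold (log2 fold change 0.66, SE 0.177, edgeR adjusted p 0.00357). On log2(TPM + 1), a scale that understates changes of rare genes, the values of the first and second step were -0.78 and 1.33 (limma adjusted p 1.19e-04 and 8.48e-07).

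**Figure D1:**
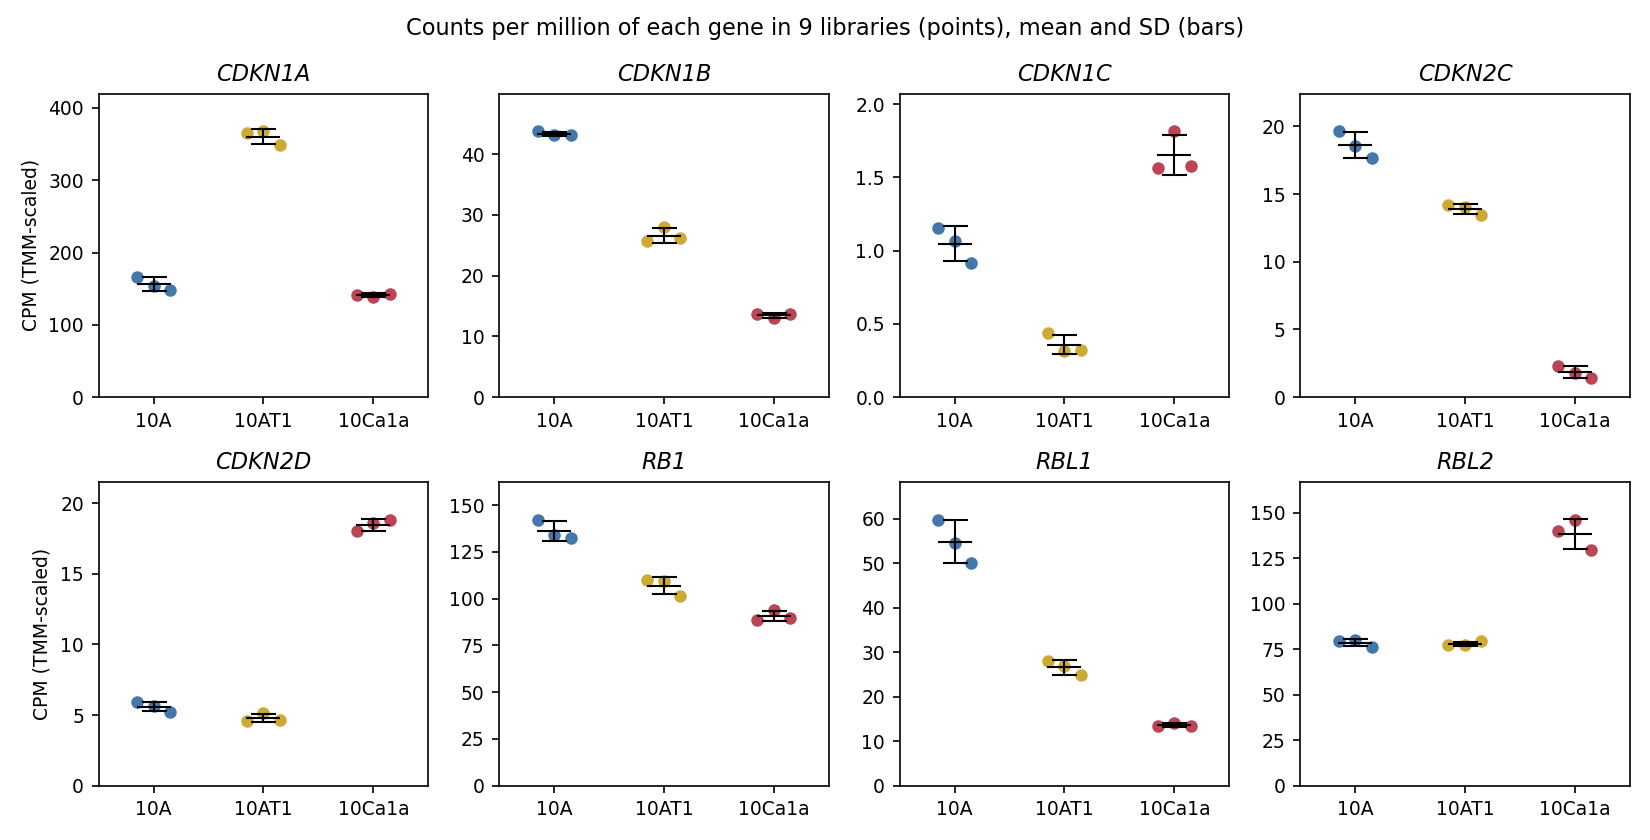
Level of each of the 8 genes in every library, in CPM, with 1 panel per gene, each point a library, the bar its line's mean and the error bar the SD over 3 libraries. CDKN1A is highest in MCF10AT1 (348 to 367 CPM), CDKN2C is lowest in MCF10Ca1a (1.44 to 2.29 CPM) and RBL2 is highest in MCF10Ca1a (129.6 to 146 CPM).

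CDKN2C, the p18 inhibitor of CDK4 and CDK6, had the largest change of the 8. CDKN2C (ENSG00000123080.12, chr1:50960745-50974633, plus strand) stood at 19.6, 18.6 and 17.7 CPM in MCF10A libraries, 14.2, 14.0 and 13.5 in MCF10AT1, and 2.29, 1.81 and 1.44 in MCF10Ca1a. The counts behind these values were 1259, 1202 and 1235, then 947, 931 and 837, and then 82, 61 and 51. The MCF10Ca1a libraries lay far below all others, and MCF10AT1 lay below MCF10A without overlap. MCF10Ca1a was 10.1-fold below MCF10A (log2 fold change -3.33, SE 0.112, edgeR adjusted p 4.02e-12) and 7.52-fold below MCF10AT1 (log2 fold change -2.91, SE 0.114, edgeR adjusted p 2.71e-11). MCF10AT1 was 1.34-fold below MCF10A (log2 fold change -0.42, SE 0.0819, edgeR adjusted p 5.24e-04).

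CDKN2D, the p19 inhibitor of the same kinases, rose in MCF10Ca1a. CDKN2D (ENSG00000129355.7, chr19:10566462-10569059, minus strand) stood at 5.89, 5.62 and 5.24 CPM in the MCF10A libraries, 4.54, 5.13 and 4.67 in MCF10AT1, and 18.0, 18.6 and 18.8 in MCF10Ca1a. MCF10Ca1a was 3.86-fold above MCF10AT1 (log2 fold change 1.95, SE 0.0765, edgeR adjusted p 2.79e-11) and 3.31-fold above MCF10A (log2 fold change 1.73, SE 0.0753, edgeR adjusted p 5.58e-11). MCF10Ca1a thus stood apart, while the other lines lay close together. MCF10AT1 was lower than MCF10A by -0.22 on the log2 scale (SE 0.0783, edgeR adjusted p 0.0240). That call was lost without the filter on low counts (edgeR adjusted p 0.0747), with thinned counts (0.0599), in the fit of those lines alone (0.0767), and without MCF10A replicate 1 (0.0638) or 2 (0.0586) or MCF10AT1 replicate 1 (0.104) or 3 (0.0661), and the value was -0.38 on log2(TPM + 0.1). The other INK4 genes, CDKN2A (chr9:21967753-21995301) and CDKN2B (chr9:22002903-22009363), had 0 counts in all 9 libraries, which at a floor of 3 counts per library is no detection, so CDKN2C and CDKN2D were the only INK4 genes with counts.

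RB1, the retinoblastoma protein gene, fell modestly along the series when counts were compared. RB1 (ENSG00000139687.16, chr13:48303726-48599436, plus strand) stood at 142, 134 and 133 CPM in the MCF10A libraries, 109.8, 109.6 and 102 in MCF10AT1, and 88.5, 93.7 and 89.7 in MCF10Ca1a. No line overlapped another in CPM. MCF10AT1 was 1.27-fold below MCF10A (log2 fold change -0.35, SE 0.0525, edgeR adjusted p 6.14e-05), and MCF10Ca1a was 1.50-fold below MCF10A (log2 fold change -0.59, SE 0.0533, edgeR adjusted p 1.58e-07). The difference of MCF10Ca1a from MCF10AT1 was -0.24 (SE 0.0533, edgeR adjusted p 9.37e-04), and its direction turned on TPM, where it was 0.05 (limma on log2(TPM + 1), adjusted p 0.570) and the replicates overlapped. With the all-gene median of the TPM fit taken off, it was -0.08.

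RBL1, the p107 gene, fell at both steps. RBL1 (ENSG00000080839.12, chr20:36996349-37095995, minus strand) stood at 59.7, 54.6 and 50.1 CPM in the MCF10A libraries, 27.9, 27.0 and 24.8 in MCF10AT1, and 13.4, 14.1 and 13.4 in MCF10Ca1a. Each line lay wholly below the one before. MCF10AT1 was 2.06-fold below MCF10A (log2 fold change -1.04, SE 0.0666, edgeR adjusted p 1.19e-08). MCF10Ca1a was 1.95-fold below MCF10AT1 (log2 fold change -0.96, SE 0.0744, edgeR adjusted p 3.24e-08) and 4.02-fold below MCF10A (log2 fold change -2.01, SE 0.0735, edgeR adjusted p 9.55e-12). On log2(TPM + 1) the second step was -0.53 (limma adjusted p 9.44e-04).

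RBL2, the p130 gene whose protein is most abundant in resting cells, went the other way. RBL2 (ENSG00000103479.17, chr16:53433977-53491649, plus strand) stood at 79.2, 79.9 and 76.3 CPM in the MCF10A libraries, 77.6, 77.3 and 79.4 in MCF10AT1, and 139.7, 146 and 129.6 in MCF10Ca1a. MCF10A and MCF10AT1 overlapped in CPM, with a log2 fold change of -0.01 (95% interval -0.12 to 0.11, edgeR adjusted p 0.918). On TPM the MCF10AT1 libraries lay below those of MCF10A without overlap, at -0.13 (limma on log2(TPM + 1), adjusted p 0.160). All MCF10Ca1a libraries lay above both lines. MCF10Ca1a was 1.77-fold above MCF10AT1 (log2 fold change 0.83, SE 0.0532, edgeR adjusted p 4.63e-09) and 1.76-fold above MCF10A (log2 fold change 0.82, SE 0.0532, edgeR adjusted p 4.10e-09).

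**Figure D2:**
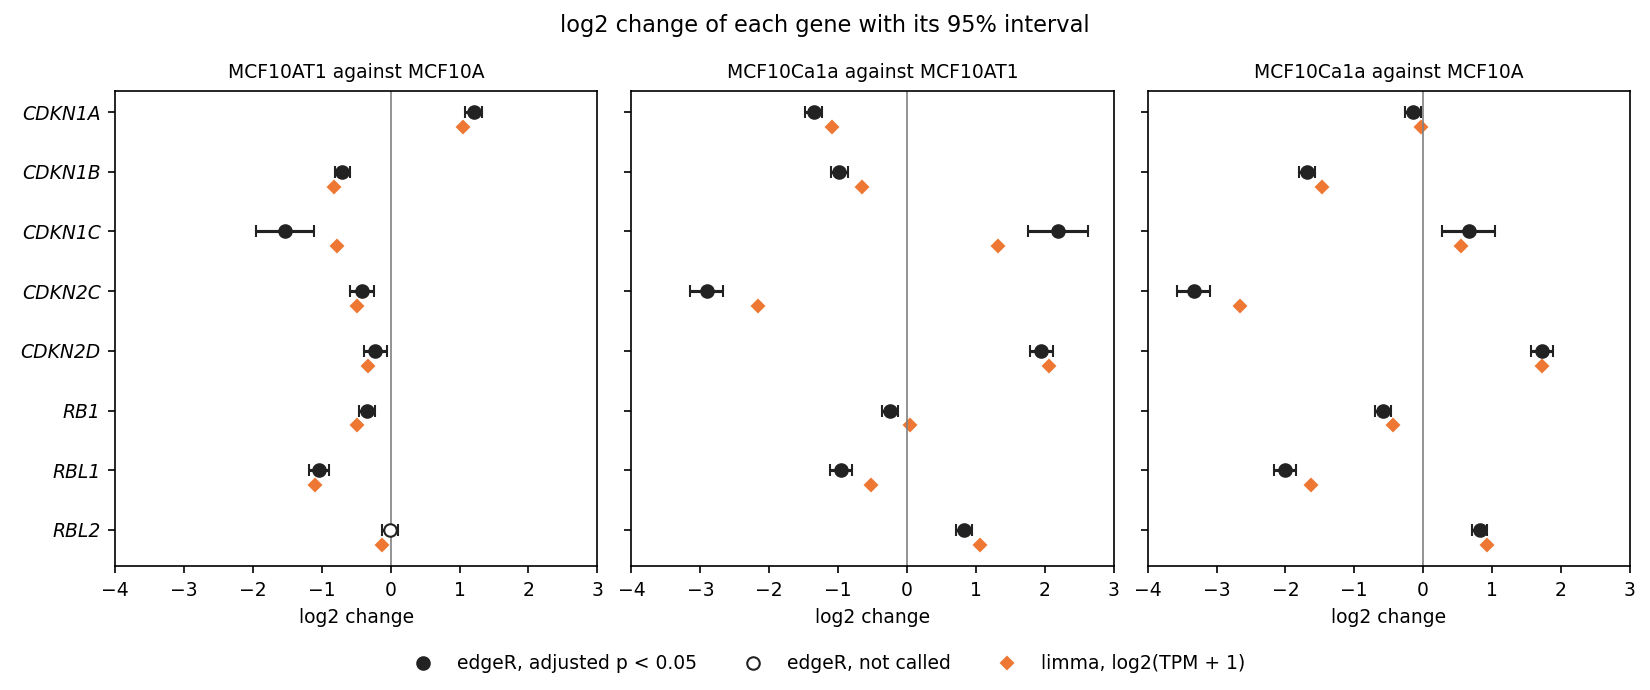
Log2 fold change of each of the 8 genes in the 3 comparisons between lines, from edgeR's quasi-likelihood test, with 95% intervals. CDKN2C has the lowest values (-2.91 and -3.33 in MCF10Ca1a against MCF10AT1 and MCF10A), CDKN1C the highest (2.20 in MCF10Ca1a against MCF10AT1), and the interval of RBL2 in MCF10AT1 against MCF10A spans 0.

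Levels can be set against each other between genes only per length, in TPM. CDKN1A was the most abundant member in every line, at 97.0 ± 12.2 TPM (SD, n = 3) in MCF10A, 201 ± 7.34 in MCF10AT1 and 94.4 ± 0.704 in MCF10Ca1a. In MCF10A the order went on with RB1 (61.2 ± 5.44 TPM), CDKN1B (31.7 ± 2.54), RBL2 (24.9 ± 1.98), CDKN2C (18.3 ± 2.18), RBL1 (17.4 ± 2.53), CDKN2D (7.28 ± 0.903) and CDKN1C (1.50 ± 0.322), and only CDKN2C and RBL1 were not separated by their spread. In MCF10AT1 it went on with RB1 (43.2 ± 2.22), RBL2 (22.6 ± 0.0486), CDKN1B (17.4 ± 0.886), CDKN2C (12.7 ± 0.953), RBL1 (7.57 ± 0.476), CDKN2D (5.55 ± 0.365) and CDKN1C (0.452 ± 0.10), each apart from the next. In MCF10Ca1a RBL2 (48.2 ± 3.63) and RB1 (44.6 ± 1.12) followed CDKN1A and overlapped each other, then came CDKN2D (26.3 ± 0.582), CDKN1B (10.8 ± 0.236), RBL1 (4.94 ± 0.298), CDKN1C (2.64 ± 0.184) and CDKN2C (2.06 ± 0.417), with CDKN1C and CDKN2C overlapping. CDKN2C thus ranked above CDKN2D in MCF10A and MCF10AT1 and below it in MCF10Ca1a. Among the genes tested, CDKN1A lay at the 91.3, 96.2 and 90.6 percentile of mean TPM in the 3 lines, CDKN2C at the 66.2, 61.6 and 34.3, and CDKN2D at the 50.1, 47.9 and 72.1.

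Shares within each family differed between lines. Of the summed TPM of the pocket proteins, RB1 took 59.1% ± 0.664 (SD, n = 3) in MCF10A, 58.9% ± 0.936 in MCF10AT1 and 45.7% ± 1.49 in MCF10Ca1a. RBL1 took 16.8% ± 0.853, 10.3% ± 0.302 and 5.05% ± 0.140, and RBL2 took 24.1% ± 0.507, 30.8% ± 1.20 and 49.3% ± 1.54. The replicate ranges of RBL1 and RBL2 did not overlap between any lines, and that of RB1 set only MCF10Ca1a apart. The ratio of RBL2 to RBL1 was 1.44 ± 0.0948 (SD, n = 3), 3.00 ± 0.202 and 9.76 ± 0.487, and that of RB1 to RBL2 was 2.46 ± 0.0575, 1.91 ± 0.102 and 0.929 ± 0.0603. The summed pocket protein TPM was 104 ± 9.91, 73.4 ± 2.64 and 97.8 ± 4.69.

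Of the detected INK4 TPM, CDKN2C took 71.5% ± 0.299 in MCF10A, 69.5% ± 2.35 in MCF10AT1 and 7.26% ± 1.47 in MCF10Ca1a (SD, n = 3), and CDKN2D the rest. The ratio of CDKN2D to CDKN2C rose from 0.398 ± 0.00585 and 0.440 ± 0.0483 to 13.1 ± 2.73, with MCF10Ca1a above every other library. The summed INK4 TPM was 25.6 ± 3.08, 18.2 ± 0.910 and 28.4 ± 0.474. Among CIP/KIP genes CDKN1A took 74.4% ± 0.745, 91.8% ± 0.241 and 87.6% ± 0.0810, and CDKN1B took 24.4% ± 0.851, 7.95% ± 0.279 and 9.97% ± 0.147. The ratio of CDKN1A to CDKN1B was 3.05 ± 0.138 in MCF10A, 11.6 ± 0.438 in MCF10AT1 and 8.78 ± 0.129 in MCF10Ca1a and was highest in MCF10AT1, where CDKN1A peaked. These shares are descriptions without a test.

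**Figure D3:**
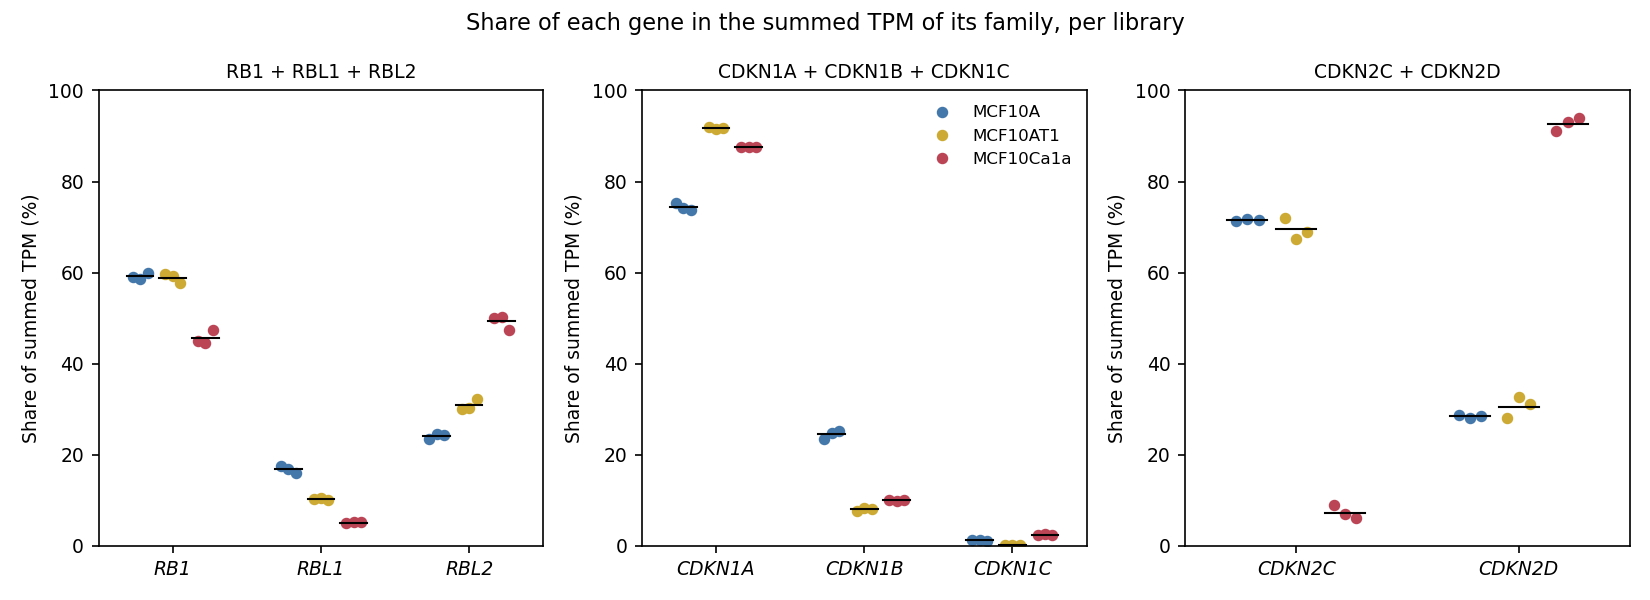
Share of each gene in the summed TPM of its family, in percent, for the pocket proteins, the CIP/KIP inhibitors and the detected INK4 inhibitors, with each point a library and each bar the mean of a line's 3 libraries. CDKN2D takes 92.7% of the INK4 total in MCF10Ca1a against 28.5% in MCF10A, and RBL2 takes 49.3% of the pocket protein total against 24.1%.

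Deposited transcript counts were used to ask which forms of the members were measured. The share of a transcript in its gene was tested with limma on the log2 ratio of the transcript to the rest of the gene. Of 22 member transcripts tested, 0 were called in MCF10AT1 against MCF10A (0 had an unadjusted p under 0.05), where 2.54% of 71521 transcripts were called. In MCF10Ca1a against MCF10AT1, 3 were called (7 had an unadjusted p under 0.05), where 15.4% of all were. In MCF10Ca1a against MCF10A, 4 were called (10 had an unadjusted p under 0.05), where 20.1% were. In both, member transcripts were thus called about as often as others. One transcript carried most counts of CDKN1A (CDKN1A-201, 96.1%, 95.8% and 94.5% in MCF10A, MCF10AT1 and MCF10Ca1a), CDKN1B (CDKN1B-201, 91.9%, 91.7% and 90.3%), RB1 (RB1-201, 99.6%, 99.3% and 99.5%), RBL1 (RBL1-202, 97.1%, 96.9% and 90.9%) and RBL2 (RBL2-201, 88.6%, 87.0% and 91.9%). CDKN2D was split between CDKN2D-202, with 81.8% ± 5.21 (SD, n = 3), 74.3% ± 11.3 and 68.2% ± 6.80, and CDKN2D-201. Neither of its shares was called in any comparison.

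Transcripts of CDKN2C and of CDKN1A were among those called. CDKN2C-201 starts at position 50960745 and CDKN2C-203 at 50968695, both with the promoter printed above. CDKN2C-203 was counted 906, 809 and 892 times in the MCF10A libraries, 608, 663 and 565 times in MCF10AT1, and 27, 25 and 29 times in MCF10Ca1a. CDKN2C-202, which starts at 50969944, had 339, 375 and 330, then 336, 262 and 251, and then 29, 21 and 19 counts. CDKN2C-201 had 14, 17 and 13, then 2, 6 and 21, and then 26, 15 and 3 counts. The fall of the gene was thus a fall of CDKN2C-203 and CDKN2C-202, while CDKN2C-201 was rare in every library and varied widely between replicates. As shares, CDKN2C-203 went from 70.5% and 67.7% to 44.0% in MCF10Ca1a (log2 share ratio against MCF10A -1.61, limma adjusted p 0.0142, and against MCF10AT1 -1.42, 0.0289). CDKN2C-201 went from 1.21% and 1.13% to 20.2% ± 13.7 (SD, n = 3; log2 share ratio against MCF10A 4.08, limma adjusted p 0.0230, and against MCF10AT1 4.67, 0.0172). The calls on CDKN2C-201 were lost when any of several single libraries was left out (limma adjusted p up to 0.0676 against MCF10A and 0.0573 against MCF10AT1), as was that on CDKN2C-203 against MCF10AT1 (up to 0.0907), and that against MCF10A was kept in each such fit. Transcripts of CDKN1A outside the rule for named transcripts were also called and were named after their values were seen. CDKN1A-208, at 0.42%, 0.28% and 0%, was called in both comparisons with MCF10Ca1a, and CDKN1A-203, at 3.24%, 3.68% and 5.46%, in MCF10Ca1a against MCF10A.

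**Figure D4:**
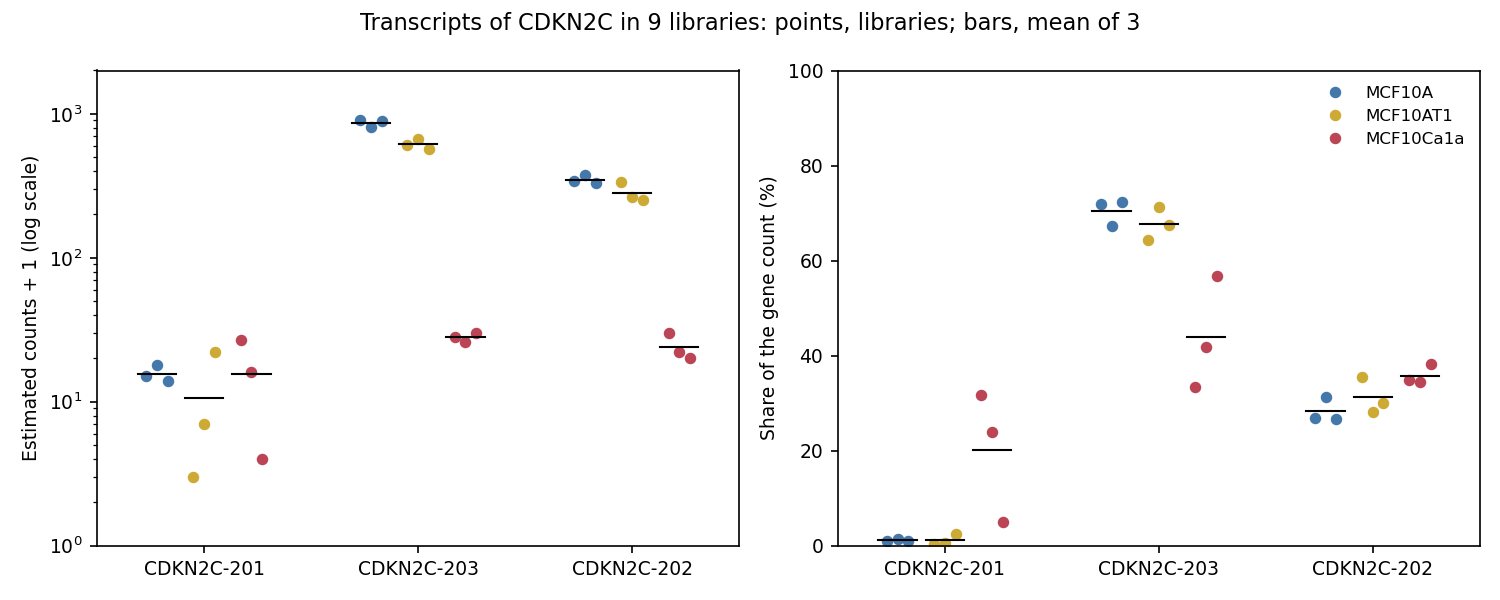
CDKN2C transcripts in every library, as estimated counts plus 1 on a log axis (left) and as a share of the gene's count in percent (right), with each point a library and each bar the mean of 3. CDKN2C-203 and CDKN2C-202 are lower in all MCF10Ca1a libraries (25 to 29 and 19 to 29 counts) than in the others, and CDKN2C-201 ranges from 2 to 26 counts over the 9 libraries.

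The G1 cyclins and kinases that the inhibitors act on were mostly lower in MCF10Ca1a than in MCF10A. Of 8 G1 cyclin and kinase genes, 3 were higher and 4 lower in MCF10AT1 than in MCF10A by edgeR, where 29.8% and 31.8% of all genes were (median log2 fold change -0.12, against -0.0038 for all genes). In MCF10Ca1a against MCF10A 1 was higher and 7 lower, where 39% and 41.9% of all genes were (median -1.18, against -0.05 for all genes). CCND2, a D cyclin, had 1522, 1257 and 1449 counts in MCF10A and 1 or 0 in each library of the other lines, at least 461-fold lower in MCF10AT1 and at least 248-fold lower in MCF10Ca1a against a floor of 3 counts per library. CCND3 fell by 2.74 on the log2 scale in MCF10Ca1a against MCF10A (SE 0.0665, edgeR adjusted p 1.87e-13), and the INK4-bound kinases differed: CDK6 rose by 0.59 (SE 0.0588, edgeR adjusted p 4.15e-07) and CDK4, named after its value was seen, fell by 0.62 (edgeR adjusted p 3.63e-08).

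Genes of the E2F and DP families, of which E2F6, E2F7 and E2F8 do not bind pocket proteins, were mostly lower in MCF10Ca1a. Of 10 E2F and DP genes, 1 was higher and 8 lower in MCF10Ca1a than in MCF10A (median log2 fold change -0.79), where 39% and 41.9% of all genes were. E2F4, the factor that RBL2 holds in resting cells, was the 1 that rose, by 0.51 (SE 0.0504, edgeR adjusted p 4.15e-07), while E2F2, an activator, fell by 2.66 (SE 0.113, edgeR adjusted p 4.35e-11) and TFDP1, their dimer partner, fell by 1.97 (edgeR adjusted p 2.72e-13). Of 7 genes of the MuvB core and its activators, 6 fell and 1 rose: LIN37, a core subunit needed for repression, rose by 1.66 (SE 0.0813, edgeR adjusted p 1.94e-10), and the activators FOXM1 and MYBL2 fell, at -2.69 and -2.48 (edgeR adjusted p 1.85e-13 and 8.61e-13).

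The genes that pocket proteins repress were lower in MCF10Ca1a. Of 19 E2F target genes of S phase, 0 were higher and 19 lower in MCF10Ca1a than in MCF10A (edgeR, median log2 fold change -1.70, against -0.05 for all genes, of which 41.9% were lower), and 2 were higher and 10 lower in MCF10AT1 than in MCF10A (median -0.19), where 29.8% and 31.8% of all genes were. Of 14 DREAM target genes of mitosis, 14 were lower in MCF10Ca1a than in MCF10A (median -2.57) and 12 lower and 0 higher in MCF10AT1 than in MCF10A (median -0.45), with the same shares of all genes. Between the outer lines, log2 fold changes were -3.15 for CCNA2, the S-phase cyclin, -2.99 for UHRF1, and -3.77 and -3.70 for the mitotic genes CENPF and PLK1 (edgeR adjusted p 8.11e-15, 1.42e-12, 4.68e-14 and 7.31e-14). RBL1 fell at both steps as well. Of 16 S-phase genes with a window, 11 held an E2F motif, as RBL1 does. Of 12 mitotic genes with a window, 8 held TTTGAA. Over all 27305 genes with a window, 3.99% held an E2F motif and 18.2% held TTTGAA. Both lists were made of known E2F or DREAM targets, so their motif counts follow from how they were chosen. Whether E2F or DREAM lowered RBL1 or these genes was not tested.

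**Figure D5:**
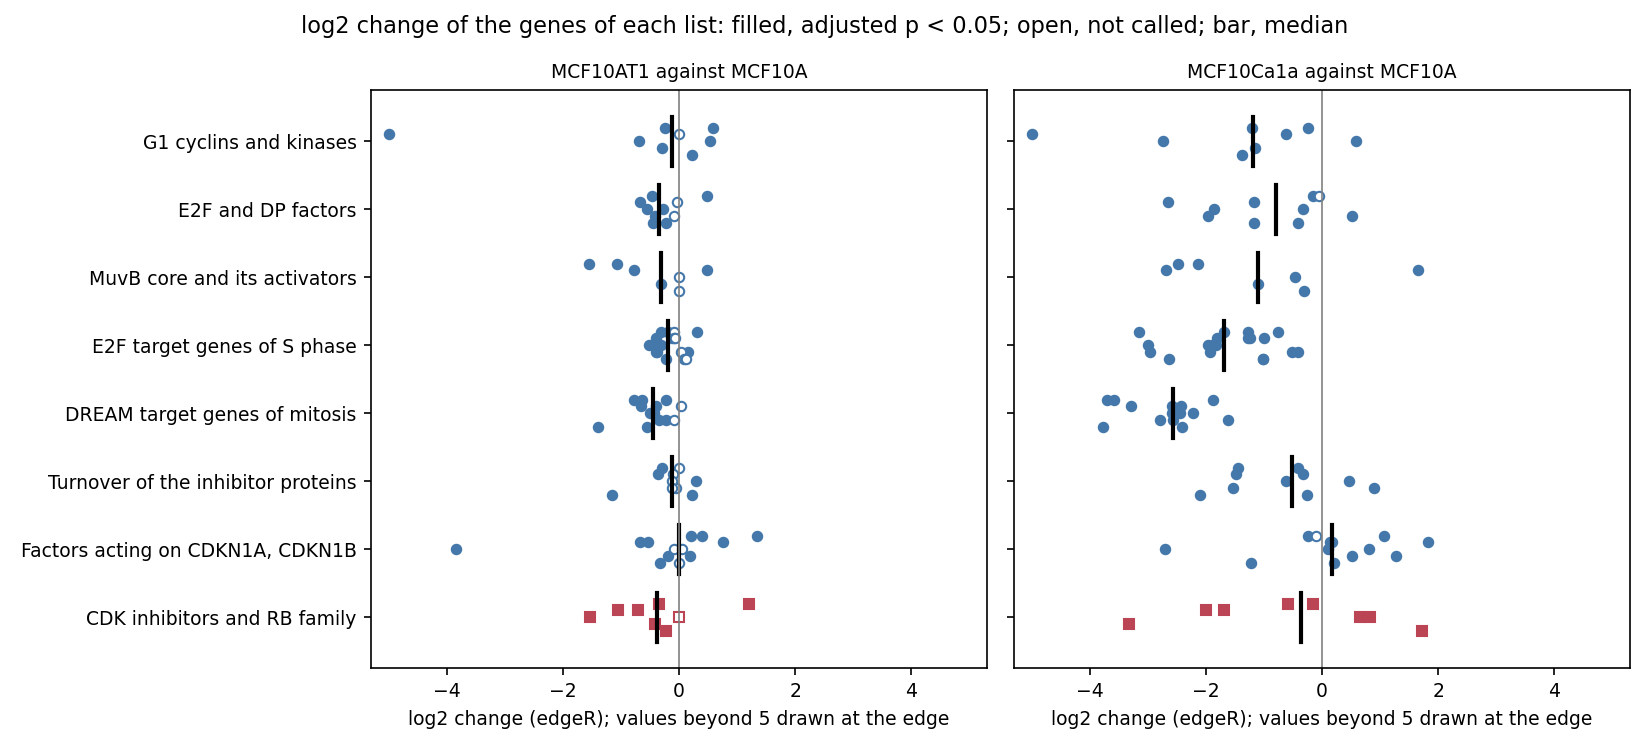
Log2 fold change from edgeR of each gene of 7 pathway lists (circles) and of the 8 genes described here (squares) in MCF10AT1 and in MCF10Ca1a against MCF10A, filled where called and open where not, with the bar at the median and CCND2, beyond the axis, drawn at its edge. The medians of the S-phase and mitosis lists in MCF10Ca1a against MCF10A are -1.70 and -2.57, and that of the factors acting on CDKN1A or CDKN1B is 0.18.

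Genes upstream of CDKN1A moved both ways in MCF10AT1, where CDKN1A peaked. Of 13 transcription factors known to act on CDKN1A or CDKN1B, 5 were higher and 5 lower in MCF10AT1 than in MCF10A (edgeR, where 29.8% and 31.8% of all genes were; median log2 fold change 0.0036, from -0.09 to 0.03 over scalings), and 9 were higher and 4 lower in MCF10Ca1a than in MCF10AT1 (median 0.67, against -0.04 for all genes, of which 38% and 40.3% were). KLF4 and KLF6, named after their values were seen, rose by 1.34 and 0.76 in MCF10AT1 against MCF10A and stood at -1.45 and -0.58 in MCF10Ca1a against MCF10AT1 (edgeR adjusted p 1.36e-10, 2.28e-08, 3.55e-11 and 1.39e-07). FOXO4 went the other way at both steps, at -0.67 and 2.50 (edgeR adjusted p 0.00168 and 2.00e-09), and so did ZBTB17, also named after its values were seen, at -0.19 and 0.70 (edgeR adjusted p 0.0322 and 7.36e-07). FOXO4 and SMAD3 rose by 1.83 and 1.27 in MCF10Ca1a against MCF10A, and FOXO1 fell by 1.22 (edgeR adjusted p 2.90e-08, 2.57e-10 and 1.45e-09).

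Of 10 genes for the turnover of the inhibitor proteins, 2 were higher and 3 lower in MCF10AT1 than in MCF10A (edgeR, median log2 fold change -0.11; 29.8% and 31.8% of all genes). In MCF10Ca1a against MCF10A 2 were higher and 8 lower (median -0.52; 39% and 41.9% of all genes). RNF123, a ligase for p27, rose by 0.89 (SE 0.0670, edgeR adjusted p 1.96e-08), and CUL1, the scaffold of the SKP2 ligase, fell by 1.54 (SE 0.0589, edgeR adjusted p 1.48e-11). DTL, which brings p21 to its ligase, fell by 2.10 (SE 0.0684, edgeR adjusted p 2.87e-12). These are RNA levels and give no protein stability.

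Chromosome neighbours of the members were read to place their changes. Of the 7 tested genes within 1 Mb of CDKN2C, 0 were called lower by edgeR in any comparison, and their median log2 fold changes were 0.27, 0.13 and 0.51 in MCF10AT1 against MCF10A, MCF10Ca1a against MCF10AT1 and MCF10Ca1a against MCF10A. The lowest of them in MCF10Ca1a against MCF10AT1 was at -0.22, where CDKN2C was at -2.91. Around RBL2, the 14 neighbours had a median of -0.57 in MCF10Ca1a against MCF10A, with RBL2 at 0.82. Around RB1, the 13 neighbours had a median of -0.76 in that comparison, with RB1 at -0.59. Around CDKN2D, 62 neighbours had a median of -0.23, with CDKN2D at 1.73. Of 9 genes listed for the imprinted region around CDKN1C, 7 had enough counts to test. Whether each of them is imprinted in these cells was not tested. In MCF10Ca1a against MCF10A 3 were higher and 3 lower (NAP1L4, CD81 and H19), where 39% and 41.9% of all genes were. SLC22A18 and PHLDA2, maternally expressed like CDKN1C, rose by 2.65 and 2.43 (edgeR adjusted p 5.38e-12 and 7.55e-14), and H19, also maternal, fell by 1.06 (SE 0.173, edgeR adjusted p 6.48e-05). Of these, SLC22A18 and PHLDA2 were also higher in MCF10AT1 than in MCF10A, by 1.30 and 1.03 (edgeR adjusted p 3.77e-08 and 1.13e-09), where CDKN1C was lowest.

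Several members overlap genes on the opposite strand. The kit marks strand, but whether the counting used it is not given in the sources used here, so reads in an overlap are uncertain. For RB1 these were LPAR6 (mean 462, 590 and 122 counts in the 3 lines) and RCBTB2 (285, 280 and 24.7), against 3154 counts or more for RB1 in every library. For RBL2 it was AKTIP (910, 1181 and 1166 counts on average), and for CDKN1A it was DINOL (1.33, 0.667 and 7).

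Members with the most similar course over the 9 libraries were CDKN1B and RBL1, at a root mean square distance of 0.176 in log2 CPM after each gene was centred. CDKN2D and RBL2 were 0.493 apart and CDKN2C and CDKN2D, the farthest pair, 2.36. Over 11991 other genes tested with enough counts, the closest to CDKN1A were RAC3 (0.0764) and SPAG16 (0.0808), to CDKN1B RAPGEF5 (0.0612) and EFR3A (0.0636), and to CDKN1C TTLL7 (0.132) and ARNT2 (0.136). The closest to CDKN2C were RASSF8-AS1 (0.121) and TNS2 (0.163), and to CDKN2D WNT7A (0.0575) and NSRP1 (0.0634). RB1 was closest to CNOT9 (0.0303) and SP3 (0.0323), RBL1 to DTL (0.0579) and CHRNA5 (0.0683), and RBL2 to PATJ and SP1 (both 0.0490). DTL, closest to RBL1, stood at 125, 56.4 and 29.1 CPM in the 3 lines where RBL1 stood at 54.8, 26.6 and 13.6, and SP1, closest to RBL2, at 101, 105 and 178 where RBL2 stood at 78.5, 78.1 and 138. With 3 lines, many genes share a course, and the median distance of all candidates ran from 0.431 for RB1 to 1.48 for CDKN2C.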

How the data were processed

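Polyadenylated RNA of MCF10A, MCF10AT1 and MCF10Ca1a went into 3 stranded libraries for each line, per the labels. The submitters' processing notes name Salmon and hg38. The annotation release and strand setting are not given in the sources used here. The authors deposited estimated counts and TPM, made with Salmon per the submitters' processing notes, per gene and per transcript. They also deposited 2 gene tables of scaled counts, used as alternatives.

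Estimated counts were rounded and filtered with filterByExpr (minimum count 10, minimum total 15), and tested with edgeR 4.0.16 (glmQLFit, glmQLFTest, TMM, all 9 libraries in 1 fit, R 4.3.3) with Benjamini-Hochberg adjustment at 0.05. Transcript shares were tested with limma 3.58.1 on log2 ratios with 0.5 counts added. The uncertainty of assigning reads to transcripts was not used. TPM was used as deposited, also as log2(TPM + 1) and log2(TPM + 0.1) in limma. The gene families, lists and markers were picked with earlier results of these data known, so counts over them are descriptions. Named genes were the members, the 2 highest and 2 lowest called genes of a list in MCF10Ca1a against MCF10A with 100 mean counts in the higher line, and the 2 genes closest to each member. Named transcripts held 10% of their gene in a line. Some genes and 1 gene list that these rules name are not reported here.

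The alternatives tried were size factors of DESeq2, its 1.42.0 Wald test, no filter, both scaled count tables, a replicate block, thinned counts, TPM, the lines compared alone, and each library left out. Depth was 32.9 to 69.5 M counts per library. Floors allow for counting error alone, as no molecular identifiers were read. Counts of replicates differed beyond sampling noise (chi-square per degree of freedom 2.51 to 74.8). On simulated data of MCF10AT1 against MCF10A, edgeR recovered 191 of 200 changed genes among 16647 with 8 false calls, and the share test 188 of 200 among 10193 with 6. DESeq2 recovered 192 of 200 among 17910 with 23 false calls. These simulations changed few genes on a shared baseline, while most genes were called in the data, so they do not test the scaling. The share simulation left out transcripts as rare as CDKN2C-201.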

Additional observations from a re-analysis of the deposited data

How the results depend on the processing

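Over all alternatives, the members called numbered 6 to 7, 7 to 8 and 7 to 8 in MCF10AT1 against MCF10A, MCF10Ca1a against MCF10AT1 and MCF10Ca1a against MCF10A. Of 480 values of member genes under an alternative, 455 kept their direction and call, 16 lost a call and 9 turned direction; of 432 of transcript shares, 395 kept both, 17 lost and 11 gained a call, and 9 turned. RBL2 in MCF10AT1 against MCF10A was at 0.0058 without a filter, 0.0070 with thinned counts, 0.019 with those lines alone, and from -0.029 to 0.0031 with 1 library left out. RB1 in MCF10Ca1a against MCF10AT1 was at 0.045 on log2(TPM + 1), with and without a filter, and at 0.046 on log2(TPM + 0.1). In shares on transcript TPM, CDKN2C-201 was at 0.12 in MCF10AT1 against MCF10A and RB1-201 at -0.24 in MCF10Ca1a against MCF10AT1. With 1 library left out, log2 share ratios in MCF10AT1 against MCF10A ran from -1.42 to 0.12 for CDKN2C-201, -0.28 to 0.0023 for CDKN1A-201, -0.16 to 0.11 for CDKN1B-201 and -0.29 to 3.02 for RBL1-202. In MCF10Ca1a against MCF10AT1 they ran from -0.86 to 0.037 for CDKN2D-202 and -0.037 to 0.86 for CDKN2D-201, and in MCF10Ca1a against MCF10A from -0.81 to 0.12 for RB1-201. Member transcripts called ran from 1 to 5 in MCF10Ca1a against MCF10AT1 and from 2 to 4 in MCF10Ca1a against MCF10A. The cause was not tested. Replicate numbers did not pair the libraries (correlations of same-numbered deviations from -0.0598 to 0.0344). With the replicate block, 7, 8 and 8 members and 1 instead of 3 member transcripts in MCF10Ca1a against MCF10AT1 were called; the shares of CDKN2C-201 (adjusted p 0.0606 against MCF10AT1 and 0.0681 against MCF10A) and of CDKN2C-203 against MCF10AT1 (0.0507) were not. The lowest counts were 20 to 74 for CDKN1C and 51 to 82 for CDKN2C in MCF10Ca1a, and both genes kept their calls with counts thinned to the smallest library, where CDKN2D in MCF10AT1 against MCF10A (adjusted p 0.0599) and CDKN1A in MCF10Ca1a against MCF10A (0.0780) did not.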
